A study of Rattus norvegicus with 12 samples.

Results

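The response of the rat uterus to estradiol was measured in animals that all received 3-methylcholanthrene (3-MC). The measurements come from 6 of the 12 arrays of the study: 3 rats given 3-MC alone and 3 rats given 17β-estradiol (E2) together with 3-MC, chosen by their treatment labels. Every probe set with a single gene symbol was used. The animals of all groups were ovariectomized young adult female rats of the Lewis strain, so both groups lacked ovaries. They were dosed on 3 consecutive days and the uterus was collected 24 h after the last dose. The dose of E2 was 4 µg/kg/d and the dose of 3-MC was 15 mg/kg/d. The other 6 rats were 3 given the vehicle dimethyl sulfoxide (DMSO) and 3 given E2 alone at the same dose. They enter the estimate of the spread and the mean levels by which probe sets and genes were kept. They also serve in side-by-side comparisons, most of them near the end. Each array holds the RNA of 1 rat.

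E2 acts mainly through estrogen receptor alpha (Esr1), a nuclear receptor that binds DNA when it holds its ligand. In the uterus it is known to drive fluid secretion, growth of the lining epithelium and the entry of white blood cells. 3-MC is a polycyclic aromatic hydrocarbon and a ligand of the aryl hydrocarbon receptor (Ahr), which pairs with Arnt and switches on enzymes of foreign-compound metabolism such as Cyp1a1. Ligands of this receptor are known to interfere with estrogen action in several tissues. The comparison therefore addresses what E2 did to uterine RNA levels while 3-MC was present.

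Levels are given as deposited intensities, and differences as E2+3-MC minus 3-MC on the scale log2(intensity + 16), with the standard error (SE) of the fit and 3 rats per group. Fold changes are on the same scale and understate the change of dim genes. Of 14506 genes with a probe set of their own, 10154 were tested, after the 30% dimmest by their mean across arrays were set aside (a limit of 6.44, or an intensity of 71.0). A gene is called when its limma p-value, corrected with the Benjamini-Hochberg procedure across the whole set of tested genes, is under 0.05.

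The 6 arrays had median intensities of 104 to 124, and the mean correlation of each with the others of its group was 0.959 to 0.983. Vehicle rat 1 stood apart from the other 11 arrays by the interquartile range of its log2 values, 2.70 against 1.87 to 2.35. It is not in the comparison, but it widens the spread that all groups share, and 2176 genes were called without it. Tissues taken as whole organs hold many cell types, and fewer cells of a type cannot be told apart here from less RNA per cell.

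In the 3-MC rats, E2 was followed by a large and mostly upward change. Of the 10154 genes tested, 834 were called (8.21%), of which 693 were higher (6.82%) and 141 lower (1.39%) with E2. In 550 of them the difference was at least 2-fold (482 upward and 68 downward), and in 113 it was at least 4-fold upward and in 16 at least 4-fold downward. The rats of the 2 groups did not overlap in 832 of the called genes, against 3786 of all genes tested (37.3%). The 2 called genes with overlapping rats were Crabp2 and S100a8. The upward share of 83.1% depends on the scale: with quantile normalization 2647 genes were called, 52.3% of them higher, and with median centring 1156, 77.3% of them higher. The median difference of all genes moved from 0.08 to -0.03 with quantile normalization. Of the called genes, 167 had a 3-MC mean below the limit for dim genes, where the size of the fold rests on the offset of 16. An E2+3-MC mean below that limit was found in 30. Such genes passed the filter through other groups, and the upward share and the list shares below include them. With no filter on dim genes 869 were called, 80% of them higher. An unadjusted limma p under 0.05 was reached by 2035 of the 10154 genes tested.

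The number of calls also rests on single rats. It was 413 without 3-MC rat 2, 442 without E2+3-MC rat 3, 489 without E2+3-MC rat 1 and 495 without 3-MC rat 1, and 617 to 1030 without any other single rat apart from vehicle rat 1. The plot of calls under each setting shows this range.

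**Figure D1:**
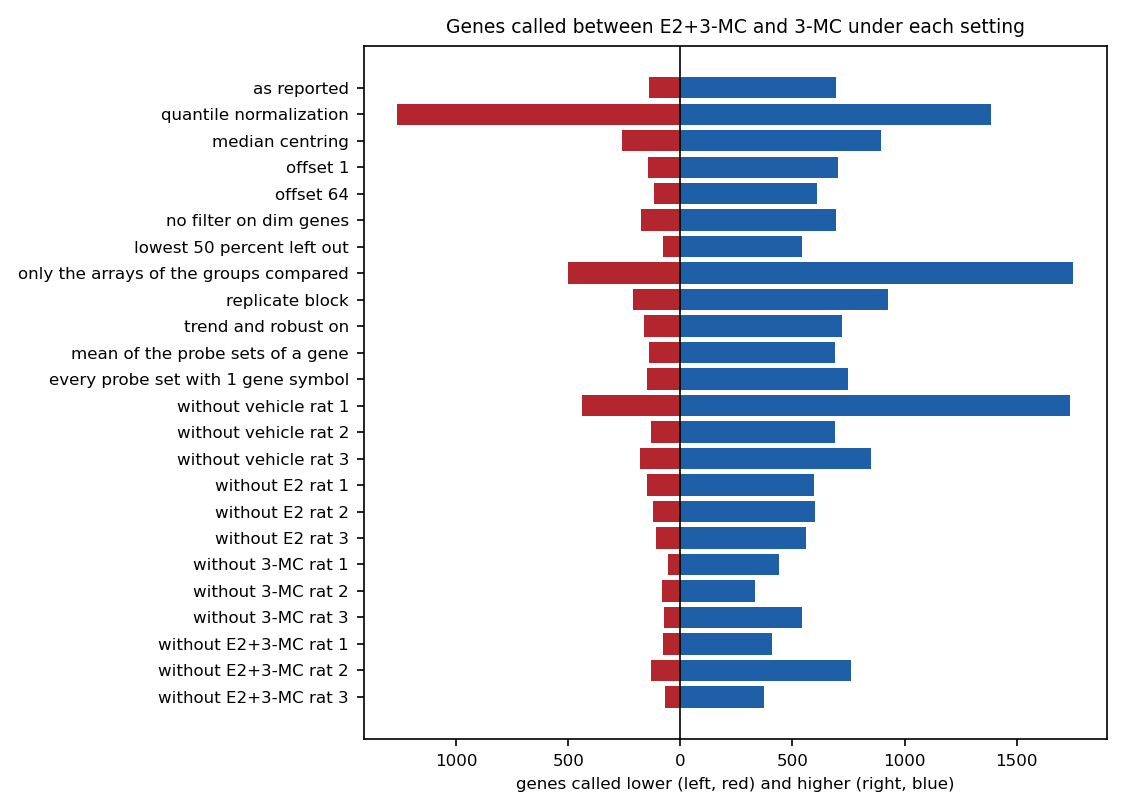
Bars give the number of genes called between E2+3-MC and 3-MC under the reported settings and the alternatives. Genes lower with E2 are to the left and those higher to the right. Array weights, and left-out rats on quantile-normalized values, are not drawn. The reported bars stand at 141 and 693, quantile normalization gives 1262 and 1385, and leaving out vehicle rat 1 gives 437 and 1739.

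The largest rises at the offset of 16 were those of Prss32, Cuzd1 and Mmp7. Prss32, a trypsin-like serine protease, had intensities of 23.6, 17.4 and 13.2 in the 3-MC rats and 2728, 1835 and 4501 in the E2+3-MC rats, a log2 difference of 6.39 (SE 0.26, adjusted p = 6.98e-11). Its 3-MC rats lay well below the limit for dim genes, and the difference was 7.25 at an offset of 1 and 5.14 at an offset of 64, so it has no firm fold. Cuzd1, a zona pellucida-like domain protein known to respond to estrogen, gave 68.0, 35.2 and 84.1 in the 3-MC rats and 4057, 3786 and 5532 in the E2+3-MC rats (5.87 ± 0.25, adjusted p = 8.21e-11), and at an offset of 64 it ranked above Prss32, with 5.16. Mmp7, the metalloproteinase matrilysin of glandular epithelia, gave 63.1, 44.6 and 80.9 in the 3-MC rats and 3937, 2415 and 6239 in the E2+3-MC rats (5.66 ± 0.28, adjusted p = 3.69e-10). In all 3 genes every E2+3-MC rat lay far above every 3-MC rat. Complement component C3, a classical estrogen-induced protein of the rat uterus, was measured at 90.6, 89.5 and 175 in the 3-MC rats and 4767, 3979 and 6606 in the E2+3-MC rats (5.28 ± 0.26, adjusted p = 3.69e-10). S100g (calbindin-D9k, which binds calcium) rose as well, with 179, 199 and 331 in the 3-MC rats and 3826, 3581 and 5154 in the E2+3-MC rats (4.09 ± 0.23, adjusted p = 2e-09). Gjb2, the gap junction protein connexin 26, varied least within groups, with 36.1, 40.7 and 35.5 in the 3-MC rats and 1690.4, 1230.0 and 1891 in the E2+3-MC rats (4.90 ± 0.19, adjusted p = 4.33e-11). Neither C3, S100g nor Gjb2 had overlapping groups.

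**Figure D2:**
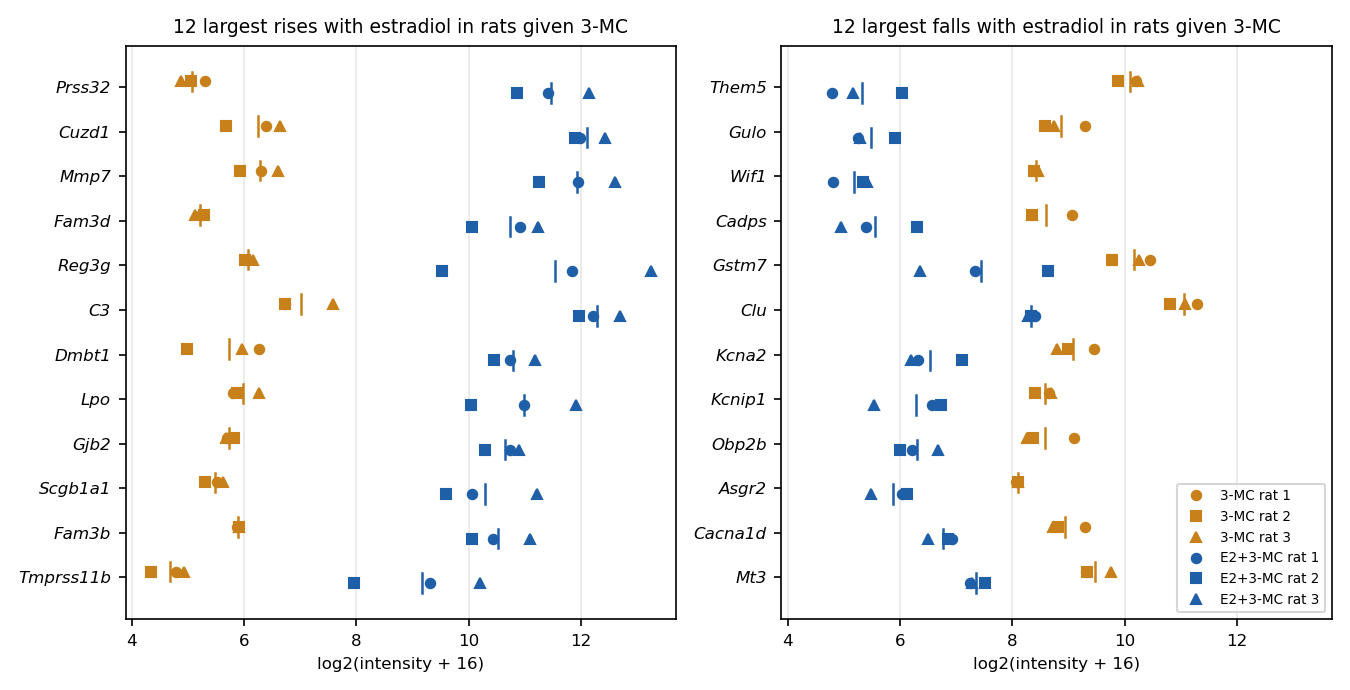
Points give log2(intensity + 16) of each rat for the 12 genes with the largest rises (left) and the 12 with the largest falls (right) among called genes, with a short line at each group mean. The E2+3-MC rats lie to the right of all 3-MC rats for every gene on the left and to the left of them for every gene on the right. Markers that coincide are drawn over each other.

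Fam3d, Fam3b, Dmbt1, Lpo, Scgb1a1 and Tmprss11b were also among the 12 largest rises. Fam3d, a secreted cytokine-like protein, gave 21.7, 22.9 and 18.7 in the 3-MC rats and 1903, 1050.0 and 2404 in the E2+3-MC rats (5.52 ± 0.24, adjusted p = 8.48e-11), and its relative Fam3b 42.3, 43.8 and 43.9 in the 3-MC rats and 1374, 1052 and 2155 in the E2+3-MC rats (4.64 ± 0.24, adjusted p = 7.37e-10). Dmbt1, a mucin-like scavenger receptor, gave 60.6, 15.6 and 46.2 in the 3-MC rats and 1684, 1383 and 2294 in the E2+3-MC rats (5.05 ± 0.31, adjusted p = 7.86e-09). Lpo, lactoperoxidase, gave 39.5, 42.8 and 61.3 in the 3-MC rats and 2019, 1040.4 and 3821 in the E2+3-MC rats (5.0 ± 0.34, adjusted p = 2.7e-08), and Scgb1a1, the secretoglobin also called uteroglobin, 29.8, 23.5 and 33.2 in the 3-MC rats and 1053, 756 and 2377 in the E2+3-MC rats (4.81 ± 0.31, adjusted p = 1.21e-08). These 5 genes were all under an intensity of 71.0 in every 3-MC rat, so their size is set in part by the offset: their differences were 5.04 to 6.26 at an offset of 1 and 3.82 to 4.37 at an offset of 64. Tmprss11b, a membrane serine protease of epithelia, gave 11.6, 4.16 and 14.4 in the 3-MC rats and 621, 234 and 1165 in the E2+3-MC rats (4.48 ± 0.38, adjusted p = 4.04e-07), ranking 12 among the called rises at the offset of 16 and 19 at an offset of 64.

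Among 16 tested genes of secreted luminal defence, 12 were called higher (75%) and none lower, with a median log2 difference of 2.49, against 0.08 for all genes tested. The count ran from 9 to 14 when single rats were left out. Over all genes tested 6.82% were called higher and 1.39% lower, the background of every list count below. Genes on several lists are counted in each. Prss32, Lcn2 and Clca1, for example, are also on the list of estrogen-induced uterine genes below. Reg3g, an antibacterial lectin, differed most between rats, with 49.6, 48.9 and 55.1 in the 3-MC rats and 3672, 718 and 9726 in the E2+3-MC rats (5.47 ± 0.60, adjusted p = 9.43e-06). Its relative Reg3b behaved likewise, with 8.78, 14.9 and 10.3 in the 3-MC rats and 262, 92.8 and 685 in the E2+3-MC rats (3.35 ± 0.42, adjusted p = 4.87e-05). Both lectins were lowest in E2+3-MC rat 2 and highest in E2+3-MC rat 3, and both groups stayed apart. Lcn2, a siderophore-binding lipocalin, was measured at 108, 118 and 199 in the 3-MC rats and 1506, 864 and 1961 in the E2+3-MC rats (3.18 ± 0.40, adjusted p = 5.39e-05), and Slpi, a secreted leukocyte protease inhibitor, at 165, 138 and 229 in the 3-MC rats and 1462, 446 and 3464 in the E2+3-MC rats (2.82 ± 0.48, adjusted p = 0.00084). Pigr, the receptor that carries immunoglobulin A into the lumen, rose by less, with a log2 difference of 1.18. Slpi-ps1, which its symbol marks as a pseudogene of Slpi, spread widest, with 12.8, 16.2 and 18.4 in the 3-MC rats and 419.8, 31.3 and 2323 in the E2+3-MC rats (3.52 ± 0.81, adjusted p = 0.0102), and probes may not separate such near copies.

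E2+3-MC rat 2 was the lowest of its group over most rising genes. It was lowest in 571 of the 693 genes called higher and in 101 of the 113 called at least 4-fold higher, and after quantile normalization in 442 and 88 of the same genes. Of the 141 genes called lower it was the highest of its group in 87, and in 100 after quantile normalization. In Reg3g, Slpi and Slpi-ps1, given above, this rat lay well below E2+3-MC rat 3. Without E2+3-MC rat 2, 889 genes were called.

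Of 27 tested genes on a list of known estrogen-induced uterine genes, 15 were called higher (55.6%) and none lower, with a median of 1.15. With quantile normalization 17 were higher and 3 lower, and without vehicle rat 1 there was 1 lower. On the deposited scale with all rats 12 of the 27 were not called, and 23 had a positive difference. Those not called included Oxtr and Muc1, with 0.94 and 0.53, and Aqp5, Ramp3 and Vegfa, with -0.74, -0.48 and -0.40. Cftr, the chloride channel of secretory epithelia, gave 29.8, 26.0 and 43.5 in the 3-MC rats and 777, 460.3 and 1224 in the E2+3-MC rats (4.00 ± 0.27, adjusted p = 2.52e-08). Slc26a4, the anion exchanger pendrin, gave 579.7, 471 and 419 in the 3-MC rats and 1299, 924 and 2294 in the E2+3-MC rats (1.5 ± 0.27, adjusted p = 0.00142), and Nherf1, a scaffold that anchors Cftr at the apical membrane, rose by 1.91 log2 units. Car2, a carbonic anhydrase, fell, with a difference of -0.98, a call lost without 3-MC rat 1, E2+3-MC rat 1 or E2+3-MC rat 3. The remaining 14 of 18 tested genes of water and ion transport were not called, though without vehicle rat 1 the list had 5 higher and 3 lower. Plac8, a small cysteine-rich protein, gave 198, 229.8 and 432 in the 3-MC rats and 3783, 2056 and 5902 in the E2+3-MC rats (3.65 ± 0.33, adjusted p = 8.29e-07). Lif, the cytokine needed for embryo implantation in rodents, stood at 62.4, 54.8 and 51.7 in the 3-MC rats and 145, 82.2 and 193 in the E2+3-MC rats (1.04 ± 0.25, adjusted p = 0.0133).

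Most genes of epithelial keratins and junctions were called higher. Of 20 tested genes for epithelial keratins and junctions, 13 were called higher (65%) and none lower, with a median of 1.08. Only 8 were called without 3-MC rat 2 and 7 without E2+3-MC rat 3. With all rats, the 7 genes not called included Cdh1, Epcam and Grhl2, with differences of 0.77, 0.75 and 0.29. Cldn4 and Cldn3 were also among these 7, with -0.09 and -0.20. Elf3, an epithelial transcription factor, gave 127, 82.6 and 99.5 in the 3-MC rats and 1093, 818 and 1575 in the E2+3-MC rats (3.27 ± 0.29, adjusted p = 6.89e-07). Krt8, a keratin of simple epithelia, gave 344, 279 and 397 in the 3-MC rats and 2168, 746 and 2958 in the E2+3-MC rats (2.27 ± 0.38, adjusted p = 0.000826), and Krt19 592, 439.9 and 715 in the 3-MC rats and 3051, 1535 and 3582 in the E2+3-MC rats (2.13 ± 0.34, adjusted p = 0.000503). Both keratins were lowest in E2+3-MC rat 2, like Reg3g and Slpi above. Prom1, a protein of apical membrane protrusions, gave 274, 187 and 249.6 in the 3-MC rats and 1301, 909 and 2388 in the E2+3-MC rats (2.52 ± 0.30, adjusted p = 2.72e-05). Dsc2, a desmosomal cadherin, was the 1 called gene of 7 tested for stratified epithelium, with 59.1, 33.7 and 49.2 in the 3-MC rats and 436, 201 and 819.8 in the E2+3-MC rats (2.80 ± 0.37, adjusted p = 7.83e-05), and without vehicle rat 1 there were 2 higher and 1 lower. How far the number of epithelial cells moved with these genes was not tested.

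The promoters of Mmp7 and Fam3d are shown because each holds the letters TGANTCA, the core motif of the AP-1 factors Fos and Jun, whose member Fos is described below. They are the 250 bases before the RefSeq start site in rat assembly GRCr8, 5′ to 3′ on the strand of the gene, with the motif in capitals. The Mmp7 window is chr8:13132793-13133042 on the plus strand and its motif begins 80 bases before the start. The Fam3d window is chr15:18969487-18969736, also on the plus strand, with the motif at 136 bases.
Mmp7: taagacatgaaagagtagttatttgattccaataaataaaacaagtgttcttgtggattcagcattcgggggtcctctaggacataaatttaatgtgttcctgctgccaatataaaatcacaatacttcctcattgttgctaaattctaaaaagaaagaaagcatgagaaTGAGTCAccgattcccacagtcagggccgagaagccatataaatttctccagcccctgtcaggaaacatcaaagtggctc
Fam3d: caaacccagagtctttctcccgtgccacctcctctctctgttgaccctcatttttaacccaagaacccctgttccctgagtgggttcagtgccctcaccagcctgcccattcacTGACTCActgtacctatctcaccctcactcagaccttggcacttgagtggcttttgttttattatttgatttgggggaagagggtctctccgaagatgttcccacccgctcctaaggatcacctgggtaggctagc

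TGANTCA, searched on both strands, is in 16 of the 88 genes called at least 4-fold higher that have a promoter entry (18.2%), in 51 of 547 called higher (9.32%), in 5 of 113 called lower (4.42%) and in 4.67% of those of all genes tested. Over all 27457 promoters in the table it is in 6.36%. The full estrogen response element (GGTCA, any 3 bases, then TGACC) is in 6 of the 27457 promoters (0.0219%) and in none of the 547 and 113 called genes with an entry, and the letters AGGTCA are in 12.6% of the genes called higher, 14.8% of those at least 4-fold higher, 7.08% of those called lower, 10.8% of those tested and 13.7% of all promoters. GCGTG, the core of the Ahr binding site, is in 34.6% of genes called higher, 20.5% of those at least 4-fold higher and 33.6% of those called lower. It is in 43.2% of those tested and 27.2% of all promoters. These are matches of letters within 250 bases and say nothing of binding elsewhere.

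Immediate early transcription factors rose in part. Of 23 tested, 5 were called higher (21.7%) and none lower. Fos gave 39.2, 31.2 and 30.3 in the 3-MC rats and 252, 108 and 339 in the E2+3-MC rats (2.20 ± 0.29, adjusted p = 8.04e-05), and Mycn, a growth-related factor of the Myc family, 52.8, 54.4 and 41.2 in the 3-MC rats and 183, 200.2 and 223 in the E2+3-MC rats (1.74 ± 0.21, adjusted p = 2.42e-05). Gadd45g, a stress-response gene, rose by 1.17, and Klf4, a factor of epithelial differentiation, by 1.12. A second, dimmer probe set of Klf4 was not called (log2 difference 0.89). The count was 11 without vehicle rat 1 and 11 with quantile normalization, each with 1 lower, and 3 without 3-MC rat 1, 3-MC rat 2, E2+3-MC rat 1 or E2+3-MC rat 3.

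Some genes of the growth factor axes were called. Igf1, the insulin-like growth factor through which E2 is known to drive epithelial division, was measured at 557, 515 and 776 in the 3-MC rats and 2265, 1473 and 2252 in the E2+3-MC rats (1.67 ± 0.32, adjusted p = 0.0027). Igfbp2, one of its binding proteins, gave 145, 119 and 165 in the 3-MC rats and 459, 218 and 663 in the E2+3-MC rats (1.42 ± 0.31, adjusted p = 0.00726), a call lost without 3-MC rat 2 or E2+3-MC rat 3. These rises were 14.3% of the tested genes of the insulin-like growth factor axis, against 6.82% called higher of all genes tested. The other 12 tested genes of the axis were not called, and 4 of the list were called lower with quantile normalization and 1 without vehicle rat 1, vehicle rat 3 or E2 rat 2. In the EGF family Btc, the ligand betacellulin, gave 83.8, 62.5 and 46.6 in the 3-MC rats and 193, 146 and 353 in the E2+3-MC rats (1.56 ± 0.26, adjusted p = 0.00081). The receptor Erbb3 and the ligand Nrg1 rose by 0.94 and 0.77. Of these, Erbb3 and Nrg1 were not called without 3-MC rat 2, 3-MC rat 3, E2+3-MC rat 1 or E2+3-MC rat 3, and Nrg1 also without 3-MC rat 1 or E2 rat 3.

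Genes of cell division rose as well. Of 15 tested mitosis genes, 9 were called higher (60%) and none lower, with a median of 1.04, and another 11 on the list were too dim to test. Cdk1, the kinase that starts mitosis, gave 40, 14.5 and 27.9 in the 3-MC rats and 309, 127 and 227 in the E2+3-MC rats (2.41 ± 0.28, adjusted p = 2.42e-05). Kif23, a motor of cytokinesis, gave 77.7, 48.5 and 79.4 in the 3-MC rats and 506, 196 and 377 in the E2+3-MC rats (2.08 ± 0.32, adjusted p = 0.000394), and Top2a, the topoisomerase of dividing cells, 62.0, 60.2 and 102 in the 3-MC rats and 434, 214 and 148 in the E2+3-MC rats (1.53 ± 0.34, adjusted p = 0.0086). All 3 were highest in E2+3-MC rat 1. The summed intensity of the 26 measured mitosis genes was 1642, 1286 and 1493 in the 3-MC rats and 5598, 2667 and 2479 in the E2+3-MC rats, so E2+3-MC rat 1 stood above the other 2 rats of its group, which were above every 3-MC rat. Without E2+3-MC rat 1, 2 of the genes were called, without 3-MC rat 2 there were 3, and without 3-MC rat 1 or 3-MC rat 3 there were 5. Without 3-MC, E2 gave 3 calls among these 15 genes and a median of 0.35 against vehicle.

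DNA replication moved less: 3 of 21 tested genes were called higher (14.3%, against 6.82% of all genes tested) and none lower, with a median of 0.29. Without vehicle rat 1 there were 5, and with the replicate number as a block also 5. Rrm2, the small subunit of ribonucleotide reductase, gave 30.2, 38.7 and 87.3 in the 3-MC rats and 732, 145 and 181 in the E2+3-MC rats (2.17 ± 0.43, adjusted p = 0.0036), and Cdc6, which loads the replicative helicase, 30.3, 30.6 and 34 in the 3-MC rats and 192, 122 and 231 in the E2+3-MC rats (2.01 ± 0.24, adjusted p = 2.66e-05). Mcm6, a subunit of that helicase, rose by 0.94, a call lost without any 1 of 3-MC rats 1 to 3, E2+3-MC rats 1 and 3, and E2 rats 2 and 3. Pcna, the sliding clamp, was at 362, 316 and 404 in the 3-MC rats and 783, 449.9 and 639 in the E2+3-MC rats and missed the threshold (0.74 ± 0.23, adjusted p = 0.0657), though its groups did not overlap.

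Interferon-stimulated genes rose almost as a group: 27 of 34 tested were called higher (79.4%) and none lower, with a median of 1.12. Without 3-MC rat 2 the count was 12, without E2+3-MC rat 3 it was 17, and without vehicle rat 1 it was 32. Mx1, an antiviral GTPase, gave 51.4, 36.8 and 143 in the 3-MC rats and 608, 519.8 and 469.7 in the E2+3-MC rats (2.72 ± 0.40, adjusted p = 0.000229). Isg15, a ubiquitin-like modifier, gave 217, 228 and 377 in the 3-MC rats and 1291, 829.7 and 1552 in the E2+3-MC rats (2.09 ± 0.28, adjusted p = 9.44e-05), and Ifit3, which binds viral RNA, 94.7, 84.2 and 163 in the 3-MC rats and 664, 414 and 489 in the E2+3-MC rats (2.07 ± 0.30, adjusted p = 0.000206). Irf7, the factor that amplifies interferon production, gave 133, 134 and 236 in the 3-MC rats and 615, 644 and 559.7 in the E2+3-MC rats (1.81 ± 0.30, adjusted p = 0.000704). In each of these 4 genes 3-MC rat 3 was the highest of its group, and the groups did not overlap. The smallest called rise was that of the peptide transporter Tap1, 0.73.

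The promoters of Ifit3 and Irf7 are shown because both hold the core letters of the interferon-stimulated response element (GAAA, any 2 bases, then GAAA again), here read on the opposite strand, in capitals. The Ifit3 window is chr1:241527076-241527325 on the plus strand, with the match beginning 44 bases before the RefSeq start in GRCr8. The Irf7 window is chr1:205800024-205800273 on the minus strand, printed along the gene, with the match at 69 bases.
Ifit3: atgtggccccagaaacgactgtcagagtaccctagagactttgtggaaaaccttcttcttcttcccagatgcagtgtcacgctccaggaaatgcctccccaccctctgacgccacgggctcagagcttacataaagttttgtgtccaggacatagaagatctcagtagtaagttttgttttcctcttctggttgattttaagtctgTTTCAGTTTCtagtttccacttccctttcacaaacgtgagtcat
Irf7: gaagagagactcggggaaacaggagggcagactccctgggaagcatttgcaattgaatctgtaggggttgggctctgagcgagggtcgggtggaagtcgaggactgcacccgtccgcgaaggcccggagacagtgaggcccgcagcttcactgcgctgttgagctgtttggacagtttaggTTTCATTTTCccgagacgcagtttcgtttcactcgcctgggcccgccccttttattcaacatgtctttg

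These letters are in 10 of the 19 called interferon-stimulated genes that have a promoter entry (52.6%), in 3 of the 7 uncalled ones (42.9%) and in 2.65% of those of all genes tested. They are in 3.29% of all promoters, searched on both strands in windows of the same length, and a gene on this list may have been placed there in the literature because of such a site.

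Some genes of complement, chemokines and antigen presentation were also higher. Of 15 tested complement genes, 7 were called higher (46.7%) and 1 lower (6.67%). After C3, the largest rise was that of Cfi, the protease that inactivates C3b, with 38.6, 27.7 and 28.8 in the 3-MC rats and 297, 363 and 474 in the E2+3-MC rats (3.03 ± 0.21, adjusted p = 3.45e-08). Cd55, which disassembles C3 convertases, gave 413, 267 and 376 in the 3-MC rats and 2302, 854 and 2874 in the E2+3-MC rats (2.31 ± 0.34, adjusted p = 0.000229). Between 3 and 11 complement genes were called higher when single rats were left out, 3 without 3-MC rat 1, 3-MC rat 2 or E2+3-MC rat 3, 4 without E2+3-MC rat 1 and 11 without vehicle rat 1. Clu, clusterin, which restrains the terminal complement complex, fell and is described with the falling genes.

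Of 25 tested chemokines and receptors, 9 were called higher (36%) and none lower, with 1 lower without vehicle rat 1 and 2 with quantile normalization. Ccl11, eotaxin, which attracts eosinophils, gave 90.9, 82.9 and 115 in the 3-MC rats and 1632, 1219 and 2609 in the E2+3-MC rats (3.97 ± 0.27, adjusted p = 2.52e-08). Cxcl17, a mucosal chemokine, gave 167, 162 and 145 in the 3-MC rats and 1310.4, 654 and 1233 in the E2+3-MC rats (2.58 ± 0.25, adjusted p = 2.07e-06), and Ccr2, the receptor of inflammatory monocytes, 48.2, 43.3 and 93.7 in the 3-MC rats and 364, 322 and 372 in the E2+3-MC rats (2.30 ± 0.29, adjusted p = 4.27e-05). Cxcl6, which attracts neutrophils, was uneven, with 22, 24.2 and 26.9 in the 3-MC rats and 590.0, 85.5 and 859 in the E2+3-MC rats (3.23 ± 0.51, adjusted p = 0.000492). The groups of all 4 stayed apart, and Cxcl6 in E2+3-MC rat 2 was the value nearest to the 3-MC rats.

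In antigen presentation 8 of 19 tested genes were called higher (42.1%) and none lower, with a median of 0.85. Ctss, a cathepsin of the class II pathway, gave 205, 197 and 354 in the 3-MC rats and 725, 639.5 and 976 in the E2+3-MC rats (1.6 ± 0.36, adjusted p = 0.00847), and RT1-Ba, a class II chain, 211, 204 and 326 in the 3-MC rats and 406, 669 and 748 in the E2+3-MC rats (1.23 ± 0.33, adjusted p = 0.0265). The immunoproteasome subunits Psmb8 and Psmb9 rose by 1.28 and 1.14. The count was 16 without vehicle rat 1, 13 without vehicle rat 3, 5 without E2 rat 3, 4 without E2+3-MC rat 1 or E2+3-MC rat 2, and 2 without 3-MC rat 1, 3-MC rat 2 or E2+3-MC rat 3. The called genes Psmb8, Psmb9, Psmb10 and Tap1 are also among the called interferon-stimulated genes and are counted on both lists.

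Macrophage markers moved with these lists. Of 16 tested markers, 10 were called higher (62.5%) and none lower, with a median of 1.17, and the summed intensity of the 18 measured was 3455, 3305 and 6205 in the 3-MC rats and 10040, 9304 and 11310 in the E2+3-MC rats. Cd68, a lysosomal protein of macrophages, gave 160.2, 141 and 386 in the 3-MC rats and 572, 756 and 618 in the E2+3-MC rats (1.57 ± 0.38, adjusted p = 0.015), Fcer1g, the shared chain of Fc receptors, 457, 423 and 1037 in the 3-MC rats and 1937, 1756 and 2064 in the E2+3-MC rats (1.68 ± 0.43, adjusted p = 0.0184), and the Fc receptor Fcgr1a 120.3, 135 and 265 in the 3-MC rats and 527, 414 and 521 in the E2+3-MC rats (1.48 ± 0.34, adjusted p = 0.0103). In all 3, 3-MC rat 3 was the highest 3-MC rat, as in the interferon genes above. Cd86, a costimulatory receptor, gave 51.3, 38.5 and 42.8 in the 3-MC rats and 133, 89.6 and 235 in the E2+3-MC rats (1.40 ± 0.27, adjusted p = 0.00317). The receptor Csf1r had a difference of 0.99 and missed the threshold (adjusted p = 0.0647), and Cd163 was too dim to test. Without 3-MC rat 1 or 3-MC rat 2, 2 of the 16 markers were called, without E2+3-MC rat 1 or E2+3-MC rat 3 there were 5, and without vehicle rat 1 all 16. The part of macrophage content in the interferon, complement, chemokine and antigen presentation changes was not tested.

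Of 5 tested neutrophil markers, 3 were called higher (60%) and none lower. S100a9, a calprotectin subunit, gave 28.0, 29.4 and 29.1 in the 3-MC rats and 248, 69.5 and 351 in the E2+3-MC rats (2.17 ± 0.38, adjusted p = 0.00109). S100a8, its partner, gave 37.5, 21.9 and 60.7 in the 3-MC rats and 232, 51.6 and 355 in the E2+3-MC rats (1.77 ± 0.49, adjusted p = 0.0322), and E2+3-MC rat 2 lay below 3-MC rat 3. Csf3r, the granulocyte growth factor receptor, rose by 0.87. Only 1 of the 3 was called without E2 rat 1, 3-MC rat 1, 3-MC rat 2, E2+3-MC rat 1 or E2+3-MC rat 3. The granule genes Mpo, Elane and Camp had differences of 0.22, -0.16 and 0.18, the last 2 too dim to test. S100a8 and S100a9 are also on the luminal defence list, since epithelia make them.

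Of 6 tested T, NK and B cell markers none was called, and the median was 0.07. Of the 6, 0 had an unadjusted limma p under 0.05, against 2035 of all 10154 genes tested. Another 12 of that list were too dim to test. The largest difference among those tested was that of Cd4, 0.32. Among 5 tested markers of eosinophils and mast cells, Kit was called, with 117, 104 and 99.8 in the 3-MC rats and 258, 213 and 462 in the E2+3-MC rats (1.34 ± 0.27, adjusted p = 0.0035), while the eosinophil genes Epx and Prg2 and the mast cell genes Cma1 and Tpsab1 were too dim to test.

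**Figure D3:**
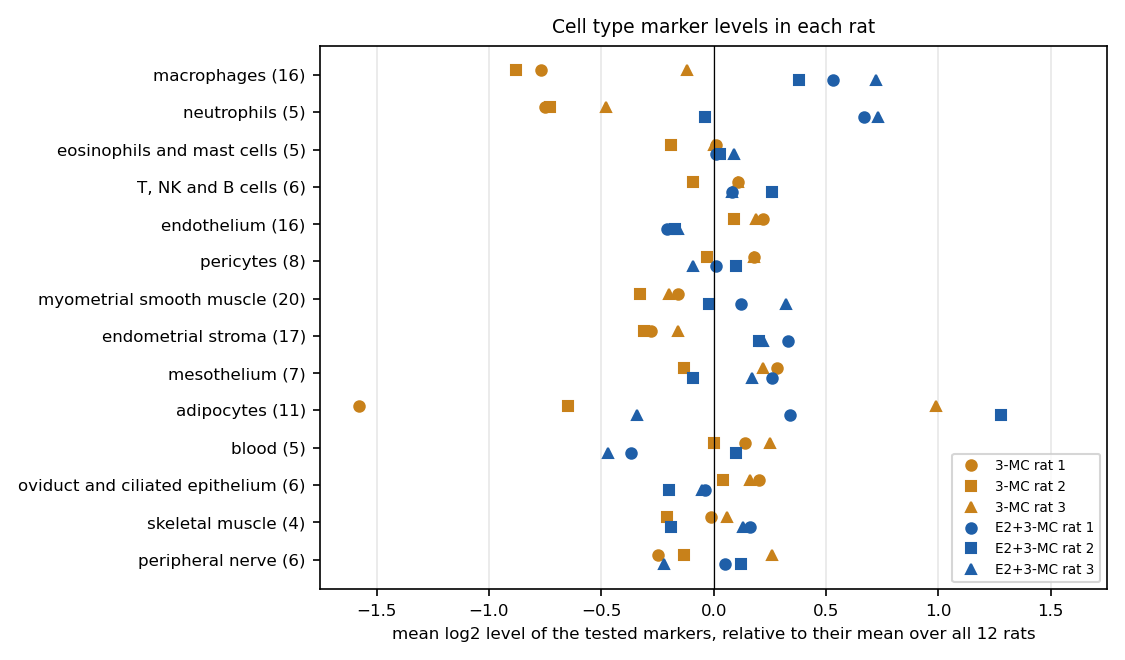
Points give, for each rat, the mean log2 level of the tested markers of a cell type (number in brackets) relative to their mean over all 12 rats. Macrophage markers are at -0.88 to -0.12 in the 3-MC rats and 0.38 to 0.72 in the E2+3-MC rats, endothelial markers at 0.09 to 0.22 and -0.21 to -0.16, and adipocyte markers overlap widely.

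Fat-cell markers differed between rats more than between groups. Fabp4, the fatty-acid carrier of adipocytes, was at 18.5, 370.4 and 2581 in the 3-MC rats and 1087, 3316 and 431 in the E2+3-MC rats (1.86 ± 1.12, adjusted p = 0.411). Car3, a carbonic anhydrase of fat and muscle, followed the same rats, with 18.4, 342 and 2313 in the 3-MC rats and 1077, 3327 and 403 in the E2+3-MC rats (1.91 ± 1.15, adjusted p = 0.411), and so did Scd, a fatty acid desaturase, with 52.6, 232 and 1088 in the 3-MC rats and 714, 983 and 130.3 in the E2+3-MC rats (0.84 ± 0.88, adjusted p = 0.705). These genes had the widest spread within groups of all genes tested, together with Slpi-ps1. The summed intensity of the 14 measured adipocyte markers was 1521, 2500 and 10150 in the 3-MC rats and 6052, 12740 and 4970 in the E2+3-MC rats. Adipoq, adiponectin, was the 1 adipocyte gene of 11 called, with 49.3, 124 and 867 in the 3-MC rats and 1367, 1151 and 2760.4 in the E2+3-MC rats (3.04 ± 0.73, adjusted p = 0.0141), and its call was lost without 3-MC rat 1, 3-MC rat 2 or E2+3-MC rat 3. Without 3-MC rat 3, 2 of the 11 were called. The part of fat attached to the uterus in these values was not tested.

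Genes that make cholesterol and fold secreted proteins rose in smaller numbers. In cholesterol synthesis and uptake 4 of 17 tested genes were called higher (23.5%) and none lower, with a median of 0.59. Idi1, an isomerase early in the pathway, gave 154, 112 and 183 in the 3-MC rats and 1187, 627 and 1356 in the E2+3-MC rats (2.65 ± 0.29, adjusted p = 9.43e-06), and Cyp51, a sterol demethylase, 227, 173 and 292 in the 3-MC rats and 794, 366 and 774 in the E2+3-MC rats (1.37 ± 0.29, adjusted p = 0.00549). Fdps and Ebp, which act before and after squalene, rose by 0.99 and 0.79. The count was 12 without vehicle rat 1, 9 with quantile normalization, 2 without 3-MC rat 1, E2+3-MC rat 1 or E2+3-MC rat 3, and 1 without 3-MC rat 2.

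In protein folding of the endoplasmic reticulum 7 of 29 tested genes were called higher (24.1%) and none lower, with a median of 0.46. P4hb, a protein disulfide isomerase, gave 794, 627 and 819.5 in the 3-MC rats and 1971, 1375 and 2240.2 in the E2+3-MC rats (1.28 ± 0.30, adjusted p = 0.0124), and Sec61b, a subunit of the translocation channel, 589, 548 and 738 in the 3-MC rats and 1477, 857 and 1804 in the E2+3-MC rats (1.07 ± 0.29, adjusted p = 0.0295). Single rats decided this count: it was 12 without vehicle rat 1 (with 1 lower), 4 without E2 rat 2, 3 without E2 rat 1 or E2 rat 3, 1 without 3-MC rat 1, and none without 3-MC rat 2, E2+3-MC rat 1 or E2+3-MC rat 3. None of 28 tested genes of mitochondrial respiration was called, although all 28 had a positive difference, against 6110 of all 10154 genes tested. The list median was 0.47, and 10 of the 28 had an unadjusted limma p under 0.05, against 2035 of all genes tested. Without vehicle rat 1, 14 of them were called higher, and the median with quantile normalization was 0.14. None of 28 tested genes of ribosome biogenesis was called, with a median of 0.08 and 3 at an unadjusted p under 0.05, and 2 were called higher without vehicle rat 1.

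The extracellular matrix and its proteases changed in a few genes. Of 31 tested matrix genes 5 were called higher (16.1%, against 6.82% of all genes tested) and none lower. Vcan, the proteoglycan versican, gave 177, 151 and 213 in the 3-MC rats and 730.2, 357 and 839 in the E2+3-MC rats (1.67 ± 0.33, adjusted p = 0.00367), and Col1a1, a chain of type I collagen, 913, 912 and 1210.5 in the 3-MC rats and 3147, 2333 and 2376 in the E2+3-MC rats (1.36 ± 0.24, adjusted p = 0.00146). The counts were 14 higher and 3 lower without vehicle rat 1, 11 higher and 4 lower with quantile normalization, and 7 higher and 1 lower without vehicle rat 3. The higher count was 3 without 3-MC rat 1, and 2 without 3-MC rat 2 or E2+3-MC rat 1. Timp1, an inhibitor of metalloproteinases, gave 277, 223 and 328 in the 3-MC rats and 1446, 884 and 1822 in the E2+3-MC rats (2.22 ± 0.25, adjusted p = 1.2e-05), and Adamts1, a protease that cleaves versican, 381, 365 and 326 in the 3-MC rats and 1079, 639 and 1263 in the E2+3-MC rats (1.38 ± 0.23, adjusted p = 0.000819). With Mmp7 and Adamts2 these made 4 called of 17 tested metalloproteinases and inhibitors. Without vehicle rat 1, and likewise with quantile normalization, 7 were higher and 2 lower. The call of Adamts2, a difference of 0.91, was lost without any 1 rat of the 3-MC group or without E2+3-MC rat 1 or 3.

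Stromal and muscle markers gave mixed counts. Of 17 tested markers of endometrial stroma 5 were called higher (29.4%) and none lower, with a median of 0.13 that was -0.15 with quantile normalization, and 1 was lower without vehicle rat 1. Dio2, the enzyme that activates thyroid hormone, gave 84.3, 66.7 and 51.8 in the 3-MC rats and 437, 460.0 and 463 in the E2+3-MC rats (2.51 ± 0.33, adjusted p = 6.96e-05), and Mme, the peptidase neprilysin, 385, 319.5 and 397 in the 3-MC rats and 1203, 849 and 1473 in the E2+3-MC rats (1.61 ± 0.28, adjusted p = 0.001). Of 20 tested smooth muscle markers Des, Actg2 and Myl9 were called higher, by 1.22, 1.08 and 0.73, and Pln lower, by -0.94. Those 3 rises were 8 without vehicle rat 1, 5 without vehicle rat 3, 1 without 3-MC rat 2 and none without E2+3-MC rat 3. The fall of Pln was lost without any 1 rat of the E2, 3-MC or E2+3-MC groups. Acta1, the skeletal muscle actin that smooth muscle also makes, gave 519, 424 and 387 in the 3-MC rats and 1566, 1176 and 2198 in the E2+3-MC rats (1.82 ± 0.26, adjusted p = 0.000199).

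On the deposited scale fewer genes were called lower than higher, and several falls were clear. With quantile normalization 1262 were called lower and 1385 higher. Them5, a mitochondrial thioesterase, fell most, with 1157, 930.0 and 1191 in the 3-MC rats and 11.6, 49.7 and 19.9 in the E2+3-MC rats (-4.78 ± 0.29, adjusted p = 7.86e-09). Gulo, which makes vitamin C in rats, gave 609.9, 368 and 410.5 in the 3-MC rats and 22.2, 44.3 and 23.2 in the E2+3-MC rats (-3.38 ± 0.28, adjusted p = 3.15e-07). In both, every 3-MC rat lay far above every E2+3-MC rat. Clu was at 2485, 1784 and 2152 in the 3-MC rats and 325, 305 and 296 in the E2+3-MC rats (-2.72 ± 0.23, adjusted p = 4.26e-07). Gstm7, a glutathione S-transferase, gave 1391, 861 and 1212 in the 3-MC rats and 145, 381 and 65.6 in the E2+3-MC rats (-2.73 ± 0.40, adjusted p = 0.000232), and the E2+3-MC rats differed among themselves, rat 2 being highest and rat 3 lowest.

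Cadps, Kcna2, Cacna1d, Kcnip1, Obp2b, Asgr2 and 2 metallothioneins were also lower with E2. Cadps, a priming factor for vesicle release, gave 521, 312 and 311 in the 3-MC rats and 26.2, 63.2 and 14.9 in the E2+3-MC rats (-3.04 ± 0.29, adjusted p = 1.58e-06). Kcna2, a potassium channel, gave 683, 496 and 431 in the 3-MC rats and 63.4, 122 and 57.4 in the E2+3-MC rats (-2.54 ± 0.25, adjusted p = 2.31e-06), and Cacna1d, a calcium channel, 614, 432 and 409 in the 3-MC rats and 106, 99.6 and 74.3 in the E2+3-MC rats (-2.19 ± 0.23, adjusted p = 5.97e-06). Kcnip1, a subunit of potassium channels, fell by 2.31 on the log2 scale, and both of its probe sets were called. Obp2b, an odorant-binding protein, gave 532, 315 and 291 in the 3-MC rats and 58.6, 48.0 and 86.4 in the E2+3-MC rats (-2.28 ± 0.39, adjusted p = 0.00104), and Asgr2, a subunit of the asialoglycoprotein receptor, 251, 260.3 and 260.1 in the 3-MC rats and 49.4, 54.1 and 28.5 in the E2+3-MC rats (-2.21 ± 0.20, adjusted p = 7.81e-07). The groups stayed apart in all of them. The metallothioneins Mt3 and Mt2A, which bind zinc and copper, fell, with differences of -2.13 and -1.58.

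Some genes of Wnt and hedgehog signalling were called. Wif1, a secreted inhibitor of Wnt ligands, gave 322, 321 and 335 in the 3-MC rats and 12.1, 24.3 and 26.8 in the E2+3-MC rats (-3.23 ± 0.29, adjusted p = 8.95e-07). Gli1, a transcription factor and target of hedgehog signals, gave 312, 267 and 277 in the 3-MC rats and 65.2, 69.4 and 32.2 in the E2+3-MC rats (-2.12 ± 0.23, adjusted p = 8.79e-06). Wnt2b, a Wnt ligand, gave 175, 149 and 199 in the 3-MC rats and 88.1, 77.5 and 87.0 in the E2+3-MC rats (-0.92 ± 0.18, adjusted p = 0.00308), while Frzb, another secreted Wnt inhibitor, rose, with 100.2, 94.1 and 88.5 in the 3-MC rats and 298, 348 and 340.4 in the E2+3-MC rats (1.64 ± 0.33, adjusted p = 0.00382). Of 34 tested Wnt genes 1 was called higher (2.94%) and 2 lower (5.88%), against 6.82% and 1.39% of all genes tested. Of 10 tested hedgehog genes none was called higher and 1 lower (10%). With quantile normalization the lower counts were 14 and 5, and without vehicle rat 1 they were 9 and 3. Without vehicle rat 3, 4 Wnt genes were called lower and 2 higher. Axin2 and Lgr5, targets of Wnt signals, had differences of -0.72 and -0.76 and missed the threshold (adjusted p = 0.112 and 0.127). Ihh, the hedgehog ligand that progesterone induces in the uterus, had a difference of -0.16.

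In the TGF-beta, BMP and activin list 3 of 26 tested genes were called higher (11.5%) and 4 lower (15.4%), against 6.82% and 1.39% of all genes tested. The rises were Ltbp2 and Ltbp1, which store TGF-beta in the matrix, and Grem1, a BMP antagonist. Ltbp2 gave 44.4, 51.5 and 60.2 in the 3-MC rats and 265, 272 and 577 in the E2+3-MC rats (2.42 ± 0.26, adjusted p = 8.69e-06), and Grem1 26.6, 27.4 and 36.6 in the 3-MC rats and 161, 62.5 and 198 in the E2+3-MC rats (1.64 ± 0.33, adjusted p = 0.00413). The falls were Id1, Id2 and Id3, which BMP signals induce, and the ligand Gdf10. Id3 was at 319, 338 and 392 in the 3-MC rats and 126, 209 and 123 in the E2+3-MC rats (-1.15 ± 0.30, adjusted p = 0.0242), Id1 had a difference of -0.97 and Id2 of -1.0. None of the 4 falls was called without 3-MC rat 1, 3-MC rat 2 or E2+3-MC rat 3, 1 was called without 3-MC rat 3 and 2 without E2+3-MC rat 1. Of the 3 rises, 1 was called without E2+3-MC rat 3 and 5 genes rose without vehicle rat 1.

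Endothelial markers lay lower with E2 without reaching the threshold. None of 16 tested was called in limma. An unadjusted p under 0.05 was reached by 9 of them, against 2035 of all 10154 genes tested. The median of the markers was -0.43. Their summed intensity was 5209, 4704 and 5172 in the 3-MC rats and 3971, 4092 and 4157 in the E2+3-MC rats, so the groups did not overlap. Cdh5, the cadherin of vessel walls, was at 584, 492 and 630.1 in the 3-MC rats and 335, 377 and 351 in the E2+3-MC rats (-0.65 ± 0.23, adjusted p = 0.109), and Erg, an endothelial transcription factor, at 235, 203 and 244 in the 3-MC rats and 125, 151 and 124 in the E2+3-MC rats (-0.71 ± 0.22, adjusted p = 0.0611). With quantile normalization 10 of the 16 were called lower, without vehicle rat 1 there were 8 lower and 1 higher, and without vehicle rat 3 there was 1. Of 22 tested angiogenesis genes Adm, the vasodilator adrenomedullin, rose, with 142, 149 and 143 in the 3-MC rats and 306, 344 and 385 in the E2+3-MC rats (1.16 ± 0.19, adjusted p = 0.000492), and Dll4, a Notch ligand of sprouting vessels, fell by 0.88. The call of Dll4 was lost without 3-MC rat 1, 3-MC rat 3, E2+3-MC rat 1 or E2+3-MC rat 3. The hemoglobin genes Hbb and Hbb-b1, which mark blood, were not called (-0.51 ± 0.44, adjusted p = 0.614 and -0.53 ± 0.36, adjusted p = 0.482). With quantile normalization 2 of the 22 angiogenesis genes were called higher and 11 lower, and without vehicle rat 1 there were 3 and 5.

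The receptors of estrogen and progesterone showed small differences. Esr1 was at 2399, 1844 and 2172 in the 3-MC rats and 1842, 1627 and 2117 in the E2+3-MC rats (-0.20 ± 0.25, adjusted p = 0.761), and its groups overlapped. With quantile normalization its difference was -0.61 and was called, so the result depends on the scale. Pgr, the progesterone receptor and a direct target of Esr1, was at 1530.5, 1162 and 1461 in the 3-MC rats and 2218, 1788 and 2957 in the E2+3-MC rats (0.72 ± 0.22, adjusted p = 0.0494). Its call lies at the threshold and was lost in 26 of 36 alternatives, among them quantile normalization (a difference of 0.31). Single rats whose absence ended it were vehicle rat 2, all 3 rats of the E2 group, all 3 of the 3-MC group, and rats 1 and 3 of the E2+3-MC group. Nr3c2, the mineralocorticoid receptor, fell by 0.85, a call lost without 3-MC rat 1, 3-MC rat 3, E2+3-MC rat 1 or E2+3-MC rat 3. Foxa2, a factor of uterine glands, fell by 0.78, a call lost without any single rat of 3-MC and E2+3-MC, vehicle rat 2, or E2 rats 2 and 3. Of 14 tested steroid receptors and cofactors 11 were not called, and 8 were called lower with quantile normalization.

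Enzymes of steroid metabolism that changed were Hsd11b2, which inactivates corticosterone, Akr1c14, a hydroxysteroid dehydrogenase, and Sult1a1, a sulfotransferase. Hsd11b2 gave 154, 120.1 and 188 in the 3-MC rats and 1152, 608 and 2089 in the E2+3-MC rats (2.78 ± 0.34, adjusted p = 3.4e-05). Akr1c14 rose by 1.16 and Sult1a1 fell by 1.05. Only 1 of the 2 rises was called without 3-MC rat 1, 3-MC rat 2 or E2+3-MC rat 1, and 4 genes of the list rose without vehicle rat 1. The call of Akr1c14 was also lost without E2+3-MC rat 2. In the progesterone-responsive list 12 of 14 tested genes were not called. Its called members were Il13ra2, a decoy receptor of interleukin 13, which rose by 2.01, and the homeobox gene Msx2, which fell by 0.93. The call of Msx2 was lost without any single rat of the E2 or 3-MC groups or without E2+3-MC rat 1 or 3, and 3 genes of the list rose and 2 fell without vehicle rat 1. None of 12 tested Hox genes was called, and 1 was called lower without vehicle rat 1. Of the 12, 1 had an unadjusted limma p under 0.05, against 2035 of all 10154 genes tested.

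Targets and partners of the aryl hydrocarbon receptor gave mixed values. Cyp1a1, its classical target, was at 27.3, 20.2 and 32.2 in the 3-MC rats and 19.9, 24.9 and 32.4 in the E2+3-MC rats, and Cyp1b1 at 30.7, 36.1 and 28.6 in the 3-MC rats and 27.3, 31.6 and 29.4 in the E2+3-MC rats. Both were below the limit for dim genes in every rat and were not tested. Ahrr, the repressor of the receptor, was at 64, 63.7 and 56.9 in the 3-MC rats and 46.1, 51.2 and 43.6 in the E2+3-MC rats, also below the limit, and its groups did not overlap. Ahr itself was at 269.8, 194 and 249 in the 3-MC rats and 198, 199.6 and 229 in the E2+3-MC rats (-0.16 ± 0.21, adjusted p = 0.78). Nqo1, a quinone reductase that this receptor and Nrf2 induce, rose, with 59.5, 66.3 and 51.3 in the 3-MC rats and 127, 81.3 and 118 in the E2+3-MC rats (0.72 ± 0.21, adjusted p = 0.0434). Its call was lost without any single rat of the E2 or 3-MC groups, or without E2+3-MC rats 1 or 3. Xdh, xanthine dehydrogenase, gave 321, 278 and 335 in the 3-MC rats and 971, 954 and 1011 in the E2+3-MC rats (1.61 ± 0.27, adjusted p = 0.000687), and Scin, an actin-severing protein, 107, 93.3 and 89.4 in the 3-MC rats and 296, 139 and 446 in the E2+3-MC rats (1.33 ± 0.29, adjusted p = 0.00677). Arnt2, a relative of the receptor's partner, fell, with 830.3, 599 and 653 in the 3-MC rats and 221, 357 and 131 in the E2+3-MC rats (-1.58 ± 0.29, adjusted p = 0.00196). Of 10 tested genes on the list 3 were called higher (30%) and 1 lower (10%).

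Detoxification and antioxidant genes were called in both directions. Of 33 tested, 8 were called higher (24.2%) and 6 lower (18.2%). Lower were Gulo, the retinal dehydrogenase Aldh1a1, and 4 glutathione S-transferases of the mu class, Gstm7, Gstm5, Gstm1 and Gstm2. Aldh1a1 gave 471, 372 and 442 in the 3-MC rats and 74.7, 119.9 and 102 in the E2+3-MC rats (-1.97 ± 0.24, adjusted p = 3.09e-05). Gstm5, Gstm1 and Gstm2 fell, with differences of -1.6, -1.39 and -0.99, and the probes of such close relatives may share signal. Among the higher genes Gpx2, a glutathione peroxidase of epithelia, gave 369, 309 and 301 in the 3-MC rats and 2961, 1538 and 3199 in the E2+3-MC rats (2.85 ± 0.27, adjusted p = 1.36e-06), and Gpx1 649.6, 674 and 975 in the 3-MC rats and 1955, 1616 and 3558 in the E2+3-MC rats (1.55 ± 0.31, adjusted p = 0.00338). Gclm, Sod2, Gsr, Prdx1, Txnrd1 and Txn1 rose by 0.84 to 1.31. Their relatives Gpx3, Gpx4, Sod1, Sod3 and Prdx6, and Cat, catalase, were not called, with differences of -0.10 to 0.63. The higher count was 14 without vehicle rat 1, 12 with quantile normalization and 4 without any 1 of 3-MC rats 1 and 2 and E2+3-MC rats 1 and 3.

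Prostaglandin genes followed several directions. Slco2a1, the prostaglandin transporter, gave 192, 148 and 186 in the 3-MC rats and 552, 333 and 1055 in the E2+3-MC rats (1.65 ± 0.34, adjusted p = 0.00442), and Anxa1, an inhibitor of arachidonate release, 859, 790.2 and 1096 in the 3-MC rats and 2570.1, 1893 and 3070.1 in the E2+3-MC rats (1.43 ± 0.26, adjusted p = 0.00171). Tbxas1, thromboxane synthase, rose by 0.85, and Ptger3, a receptor of prostaglandin E2, fell by 1.11. The other 12 of 16 tested were not called, though without vehicle rat 1 the list had 5 higher and 3 lower, and without any 1 rat of the E2 group or without E2+3-MC rats 1 or 2 it had 2 lower. Ptger3 was not called without 3-MC rat 1 or E2+3-MC rat 3, and Tbxas1 was not called without 3-MC rat 1, 3-MC rat 2, E2+3-MC rat 1 or E2+3-MC rat 3. In peripheral nerve Gap43, a protein of growing axons, fell by 1.17, a call lost in 13 of 35 alternatives, among them the absence of any single rat of the E2, 3-MC or E2+3-MC groups or of vehicle rat 2.

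**Figure D4:**
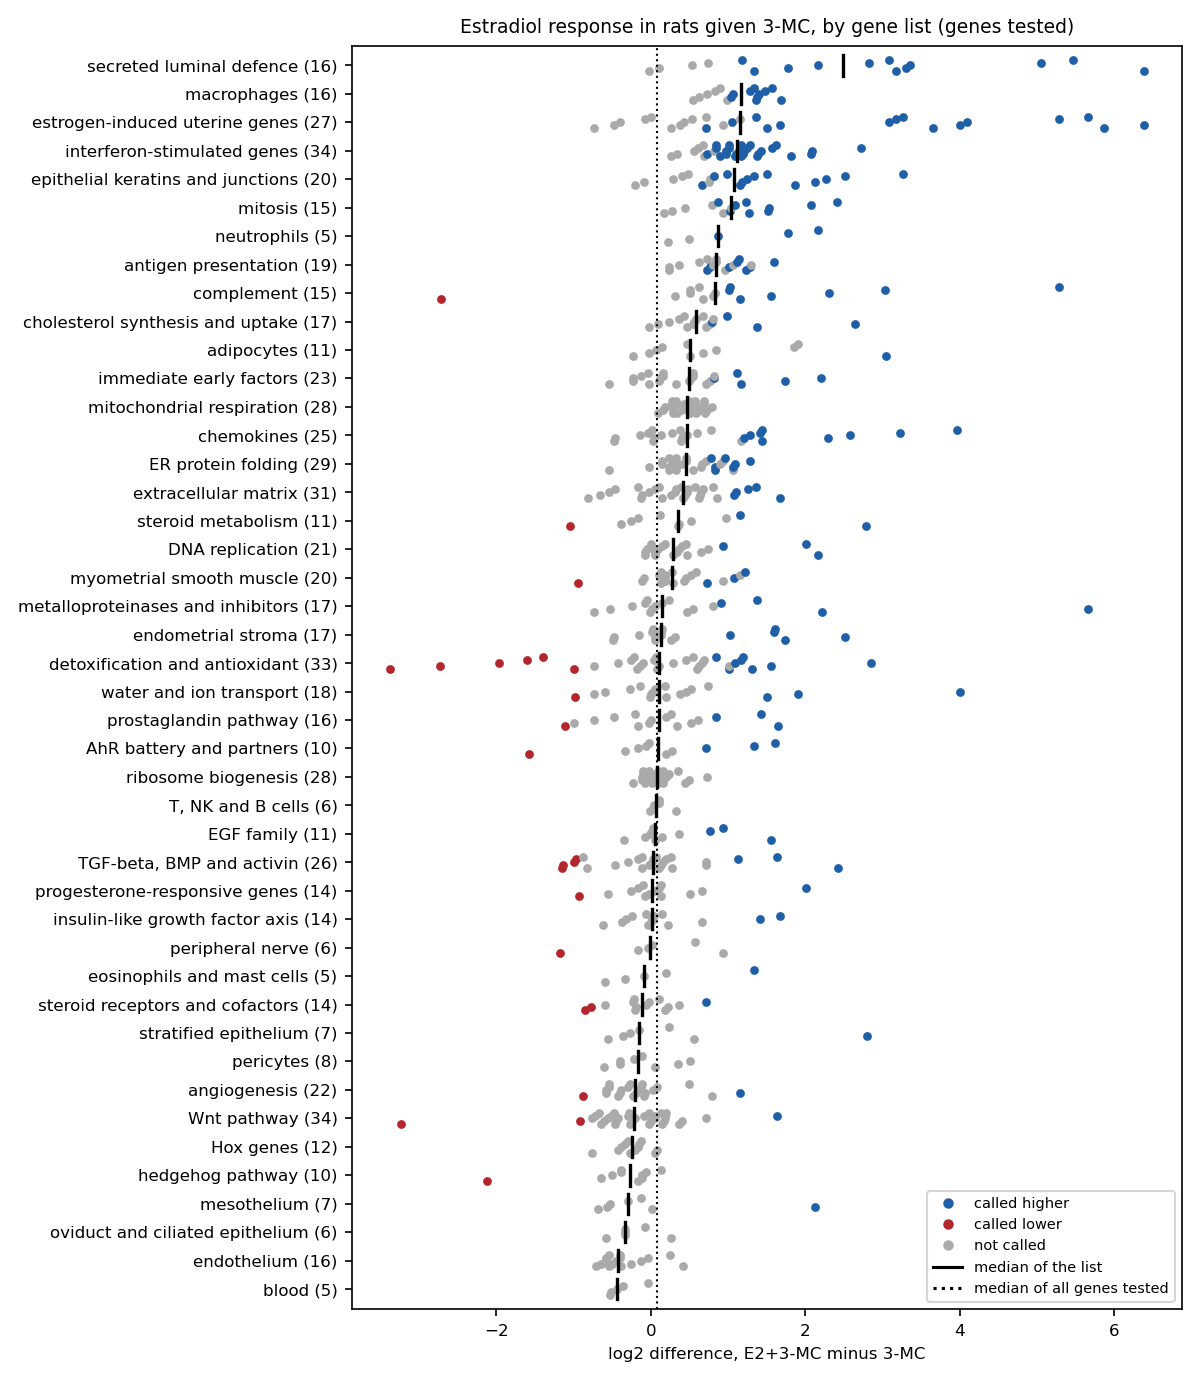
Each point is the log2 difference, E2+3-MC minus 3-MC, of 1 tested gene, grouped by list (number tested in brackets) and coloured by call; thick dashes mark list medians and the dotted line the median of all genes, 0.08. Secreted luminal defence has the highest median, 2.49, and blood the lowest, -0.44.

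The response could be set beside that of rats without 3-MC, since the E2 and vehicle rats are other animals on other arrays. The tests are not separate, because both differences came from the same limma fit and used the same estimate of each gene's spread. A gene with a small spread is more easily called in both, so the shares of shared calls below are not counts from independent tests. Between E2 and vehicle 1842 genes were called (18.1%), 883 higher (8.7%) and 959 lower (9.44%). That balance depends on the scale and on single rats. With median centring 1535 were higher and 801 lower, and without vehicle rat 1 there were 2412 and 1129. The lowest totals were 986 without E2 rat 3 (572 higher and 414 lower) and 1151 without E2 rat 2 (704 and 447), and without vehicle rat 3 or E2 rat 1 the higher share was 31.5% and 30.9%. Of the 834 genes called with 3-MC, 740 were also called without it, all in the same direction. They are 88.7% of the genes called with 3-MC and 40.2% of those called without it. The first share was 98.2% and the second 23.1% without vehicle rat 1, 72.3% and 61.2% without E2 rat 3, 80.0% and 57.9% without E2 rat 2, and 97.0% and 20.7% with quantile normalization. The other 94 genes called with 3-MC had the same sign without it. The differences had a Pearson correlation of 0.915 and a Spearman correlation of 0.846 across the 10154 genes, which are not independent and share the platform and the filter.

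**Figure D5:**
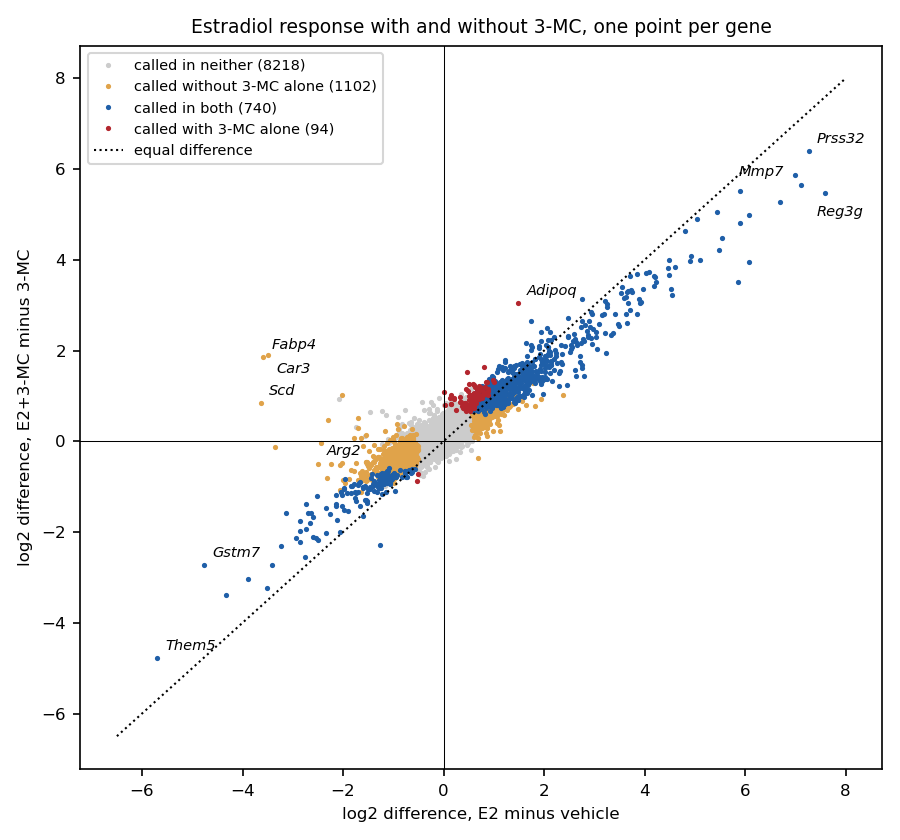
Each point is a gene, with its log2 difference without 3-MC (E2 minus vehicle) on the horizontal axis and with 3-MC (E2+3-MC minus 3-MC) on the vertical axis; the dotted line marks equal differences. Of the genes called, 740 were called in both, 94 with 3-MC alone and 1102 without 3-MC alone. Adipoq, Fabp4, Car3 and Scd lie far from the line.

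The difference between the responses was tested for every gene as an interaction in limma. No gene was called; 298 had an unadjusted p under 0.05, and the smallest adjusted p was 0.977. With quantile normalization the counts were 0 and 570, and the smallest adjusted p was 0.36. These tests do not show that the responses were alike, since the SE of an interaction is larger than that of either response.

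Among genes called at least 4-fold higher with 3-MC, the median log2 difference was 2.80 with 3-MC and 3.22 without it, and 94 of the 113 had the smaller rise with 3-MC. With quantile normalization the medians were 2.68 and 3.23, again with 94 smaller. E2+3-MC rat 2, the lowest of its group in 101 of these genes as given above, moves this count: without it the medians were 3.09 and 3.22, with 76 smaller. Without any other single rat 88 to 101 were smaller. C3 rose by 5.28 with 3-MC and by 6.69 without it, Mmp7 by 5.66 and 7.11, Reg3g by 5.47 and 7.59, and S100g by 4.09 and 4.93. The unadjusted interaction p was 0.00123 for C3 and 0.0017 for Mmp7, and neither was called. Gjb2 had nearly the same rise, 4.90 and 5.05, as did the interferon gene Ifit3, 2.07 and 2.08, and Cfi, 3.03 and 3.26. Of the 16 genes called at least 4-fold lower, 15 fell by less with 3-MC, with medians of -2.29 and -2.90, and 11 did so with quantile normalization. On the deposited scale the median of all genes tested was also higher with 3-MC, 0.08 against -0.11, with a median interaction of 0.19. Smaller falls with 3-MC are therefore not particular to these 16 genes. Of 139 falls called in both responses, 130 were smaller with 3-MC, and 93 with quantile normalization. Of 601 such rises, 400 were smaller with 3-MC. Them5 gave -4.78 and -5.70, Clu -2.72 and -3.41, and Gstm7 -2.73 and -4.77. Obp2b went the other way, with -2.28 with 3-MC and -1.26 without it.

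The genes nearest to a called interaction were Ctnnd2, Dnajc14, Arg2 and Mt2A. Ctnnd2, a catenin, fell by 0.83 with 3-MC and by 1.95 without it. Arg2, an arginase, was at 591, 443 and 400.1 in the 3-MC rats and 314, 583 and 193 in the E2+3-MC rats, a difference of -0.50 that was not called, and fell by 2.49 without 3-MC. Mt2A gave -1.58 and -3.13. Dnajc14, a chaperone of the endoplasmic reticulum, was at 199, 215 and 194 in the 3-MC rats and 138, 158 and 167 in the E2+3-MC rats, a difference of -0.37 that was not called, against 0.69 without 3-MC.

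Of the 94 genes called with 3-MC alone, the largest differences were those of Adipoq, 3.04 against 1.49 without 3-MC, Frzb, 1.64 against 0.80, and Top2a, 1.53 against 0.47. The mitotic genes Ccnb1, Tpx2 and Nusap1 were also among them; Nusap1, which bundles spindle microtubules, had differences of 1.09 and 0.01. Their unadjusted interaction p-values in limma were 0.0259 to 0.182. After adjustment over all genes tested no interaction was called, so none of the 3 was shown to differ between the responses. The adipocyte genes Fabp4 and Scd differed by 1.86 and 0.84 with 3-MC and by -3.59 and -3.64 without it. The mean level of the adipocyte markers was 2.47 above the 12-rat mean in vehicle rat 1 and 0.01 and 0.28 above it in vehicle rats 2 and 3, while the 3-MC rats ran from -1.58 to 0.99.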

How the data were processed

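RNA from the uteri of 12 rats, 3 in each of 4 groups, was measured on Affymetrix rat gene arrays. The deposited values are linear probe set intensities that the authors made with Affymetrix Expression Console and PLIER, per the submitters' processing notes; tool versions, their settings and any normalization between arrays were not given in the sources used here. Of 29214 probe sets, 15310 had 1 gene symbol, 323 several and 13581 none in the platform annotation; 15279 of the 15310 matched RefSeq genes of GRCr8 by gene ID. Of several probe sets per gene, the one with the highest mean was kept.

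Intensities were taken as log2(intensity + 16). All 12 arrays entered 1 limma model (version 3.58.1, R 4.3.3; lmFit and eBayes, 8 residual and 8.92 prior degrees of freedom) with 1 mean per group and two-sided tests. The array number limits precision: the median SE of a difference was 0.22, and an exact permutation test of 3 against 3 could not go below p = 0.1. The script was tested on simulated data.

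Members and the 45 gene lists (952 genes, 835 measured, 700 tested) were chosen with earlier results of these data known, so they are no independent support. Named genes are fixed markers, the 12 largest rises and falls among called genes whose rats do not overlap, up to 4 called members per list (2 by value where none was called), the 4 genes nearest to a called interaction and the 4 with the widest spread. Other called members were named to complete a list or a comparison after their values were seen. Tiparp, Greb1 and Mki67 had no usable probe set. Alternatives covered normalization, offset, filter, model, probe sets and left-out rats.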

Additional observations from a re-analysis of the deposited data

Results flagged for a closer look

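The difference with E2 in Dnajc14, a chaperone of the endoplasmic reticulum, had opposite signs in the rats with and without 3-MC. It was -0.37 on the log2 scale with 3-MC, which was not called (limma, adjusted p = 0.255), and 0.69 without it, which was called (adjusted p = 0.0106). The interaction was -1.06 (limma, unadjusted p = 0.000506) and did not pass the Benjamini-Hochberg adjustment over 10154 genes, and no other gene did.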

How the results depend on the processing

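Between E2+3-MC and 3-MC, 834 genes were called, 693 higher and 141 lower. Quantile normalization gave 2647 (1385 and 1262), the 6 arrays of the comparison alone 2253 (1752 and 501), and array weights 5632 (3738 and 1894), but the weights ran from 5.83e-07 to 296 and their estimation did not converge. Genes called lower numbered 262 with median centring, 213 with the replicate number as a block and 76 with the lowest 50% left out. Without single rats the total was 413 to 2176, with 333 to 1739 higher and 57 to 437 lower, and on quantile-normalized values 1838 to 3454, with 1007 to 1753 and 819 to 1701. Of the main calls, 825 of 830 tested were also called with quantile normalization. For E2 minus vehicle, 1842 genes were called (883 and 959). Quantile normalization gave 3901 (1928 and 1973), median centring 1535 higher and 801 lower, the lowest 50% left out 1183 with 531 lower, its own 6 arrays 965 (576 and 389) and array weights 3711 (2220 and 1491). Left-out rats gave 986 to 3541 (548 to 2412 and 414 to 1346), or 2997 to 4677 (1511 to 2448 and 1418 to 2229) on quantile-normalized values. The interaction had 0 calls, 256 with array weights, and 0 to 2 without single rats after quantile normalization (2 without E2+3-MC rat 3). Why the counts moved was not tested beyond the settings' own construction. No named gene that was called changed direction in any setting. Of those not called, Fabp4, Scd, Cd4 and Ncr1 (1.86, 0.84, 0.32 and 0.10) fell below 0 in at least 1 setting, with lowest values of -0.05, -0.34, -0.10 and -0.11. Of 130 named called genes tested with quantile normalization only Pgr lost its call.

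The replicate numbers are not stated to pair rats. Deviations of same-numbered 3-MC and E2+3-MC rats correlated at 0.073, 0.14 and 0.084, each rat best with its own number, and those of vehicle and E2 rats at 0.001, 0.087 and -0.074. With the replicate block 1140 genes were called, 833 of them among the 834, and 2545 for E2 minus vehicle. The sources give no depth; the limit is the 3 rats per group.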
